A study of Mus musculus with 24 samples.

Results

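The 9 genes described here encode proteins that form brain lipoproteins, load them with lipid or bind them: the secreted apolipoproteins Apoe, Clu, Apod and Apoc1, the lipid exporters Abca1 and Abcg1, the plasma and cerebrospinal fluid enzyme gene Lcat, and the receptors Lrp1 and Sort1. They were picked by symbol from a table of 33000 genes, in which each symbol occurred once, and all 9 passed the filter on low counts. The samples were 24 3'Pool-seq libraries, which read the 3' ends of polyadenylated transcripts, made from frontal cortex RNA of 3-month-old C57BL/6 mice. Of the 6 mice, 3 were WT and 3 were homozygous for GFAP-IL6, a transgene in which the astrocyte promoter of GFAP drives Il6. The RNA of a mouse went into 4 libraries, named by the cDNA tagmented (2 ng or 1 ng) and by a set letter (A or B) whose meaning is not given in the labels. The series was made to benchmark the library method, and the genotype contrast asks which transcripts differ under chronic IL-6 in the brain.

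Brain lipoproteins are particles of high-density type that are made inside the brain, since plasma lipoproteins hardly cross the blood-brain barrier. ABC transporters in the plasma membrane of astrocytes and microglia hand cholesterol and phospholipid to a secreted apolipoprotein, LCAT esterifies the cholesterol, and neurons take the particles up through members of the LDL receptor family. Variants in the genes of APOE and clusterin are known to bear on the risk of Alzheimer's disease, and microglia around debris are known to express more Apoe.

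The genotype labels were checked first. Il6 had 5, 3 and 0 counts in WT mice 1, 2 and 3 and 30, 33 and 163 counts in GFAP-IL6 mice 1, 2 and 3. Gfap, the intermediate filament gene of astrocytes, was at 19.97 ± 3.78 CPM in WT and 109.7 ± 33.4 CPM in GFAP-IL6 mice (SD, n = 3 each). CPM are counts scaled to a common library size with TMM factors, with the 4 libraries of a mouse summed. Both genes were higher in each GFAP-IL6 mouse than in each WT mouse, with log2 fold changes of 4.06 for Il6 (adjusted p = 0.000783, edgeR) and 2.44 for Gfap (adjusted p = 1.59e-06).

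The sums held from 7852743 counts in WT mouse 3 to 37582644 in GFAP-IL6 mouse 3, and single libraries held 1524165 to 12256374 counts. Tissue markers were read as summed CPM of short lists. Neuron markers lay at 5478 to 6143 CPM in WT and 5103 to 5787 CPM in GFAP-IL6 mice, and astrocyte markers at 2867 to 2965 and 3155 to 3376 CPM. Choroid plexus markers, led by Ttr, reached 4088 CPM in WT mouse 3 against 82.2 to 757 CPM in the other five mice, so WT mouse 3 stands apart in that respect. Calls and directions that change without this mouse are given beside the gene.

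Among the 9 genes, Apod and Apoc1 were higher in GFAP-IL6 cortex and the other 7 did not pass the test. Apod rose 1.602-fold and Apoc1 rose 2.71-fold as ratios of mean CPM. Apoe, by far the most abundant of the 9, was 1.24-fold higher on the same measure without passing. With edgeR's quasi-likelihood test on the summed libraries and an adjusted p under 0.05, 2 of the 9 genes passed as higher, against a background of 1.74% of the 14621 genes tested. Apoc1 alone was a DEG, with an absolute log2 fold change above 1 as well, against a background of 1.2% called as higher DEGs. The median log2 fold change was 0.17 over the 9 genes and -0.01 over all genes tested. The 9 genes were chosen with earlier results of these data known, so these figures are descriptions and test no enrichment. Here n is 3 mice per genotype. The edgeR p-values rest on the spread between these mice, moderated by the spread of the other genes tested. They are therefore no measure of the spread of 1 gene alone. In bulk tissue, more or fewer cells of a type and more or less RNA per cell cannot be told apart.

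**Figure D1:**
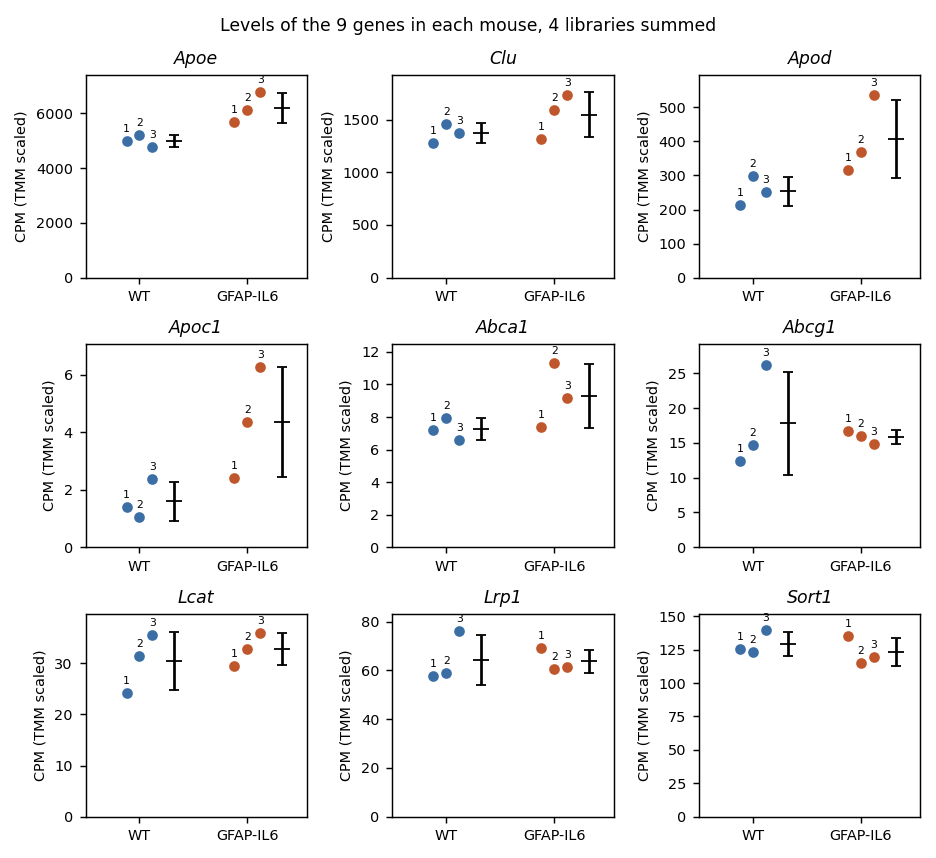
Level of each of the 9 genes in each mouse, as TMM-scaled CPM of the 4 summed libraries on a linear axis from 0; points are mice with their numbers, and the dash and bar are the mean and SD of 3 mice. The GFAP-IL6 mice lie above all WT mice for Apoe, Apod and Apoc1, and the groups overlap for the other 6 genes.

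In WT cortex the 9 genes covered a wide range of levels. Divided by transcript length, Apoe stood at 2746 ± 120 CPM per kb (SD, n = 3), Clu at 757 ± 50.4 and Apod at 122 ± 20.8. Lcat followed at 22.7 ± 4.27 CPM per kb and Sort1 at 18.7 ± 1.27, and the ranges of these neighbours in the order overlapped over the mice. Abcg1 at 4.93 ± 2.05 CPM per kb overlapped Lrp1 at 3.94 ± 0.627, and Lrp1 overlapped Apoc1 at 2.99 ± 1.26. Abca1 was lowest per kb, at 0.705 ± 0.0664, and its range lay below that of Apoc1. These libraries capture transcript ends, so dividing by length lowers long transcripts such as Lrp1 at 16305 nt, and the order depends on it. In CPM not divided by length, the WT means were 129 for Sort1, 64.2 for Lrp1, 30.4 for Lcat, 17.8 for Abcg1, 7.24 for Abca1 and 1.61 for Apoc1, which was then the lowest. On the summed counts themselves, Apoe took 0.462% to 0.693% of all counts of a mouse.

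Apoe encodes the main apolipoprotein of the brain, made mostly by astrocytes and also by activated microglia. It was at 4994, 5201 and 4766 CPM in WT mice 1, 2 and 3 and at 5686, 6103 and 6760 CPM in GFAP-IL6 mice 1, 2 and 3. All 3 GFAP-IL6 values exceeded the highest WT value. The genotypes did not overlap for 3 of the 9 genes, in each case with GFAP-IL6 higher, against 8.43% of all genes tested, and an exact permutation test of 3 against 3 mice cannot give less than its p of 0.1. In edgeR's test the log2 fold change of Apoe was 0.31 (SE 0.0887, 95% interval 0.12 to 0.50) with an adjusted p of 0.129. Apoe was past the threshold with DESeq2 (adjusted p = 0.0259), with limma voom over all 24 libraries (adjusted p = 0.000506) and with edgeR when GFAP-IL6 mouse 1 was left out (adjusted p = 0.0375). The voom fit counted libraries of a mouse with a correlation of only 0.103, so its p-value treats them almost as separate mice. Over 18 alternatives its log2 fold change lay between 0.24 and 0.37 and its adjusted p between 0.000506 and 0.666.

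Apod encodes a small lipid-binding lipocalin of glia that associates with high-density lipoprotein and is known to rise in injured and aged brain. Its level was 213, 299 and 250 CPM in the 3 WT mice and 317, 367 and 536 CPM in the 3 GFAP-IL6 mice. The groups did not overlap, and GFAP-IL6 mouse 3 lay far above the other 2 mice of its genotype. The log2 fold change was 0.68 (SE 0.160, 95% interval 0.34 to 1.02; adjusted p = 0.0412, edgeR). The call did not hold without WT mouse 1 (adjusted p = 0.159), WT mouse 3 (0.0889), GFAP-IL6 mouse 2 (0.0636) or GFAP-IL6 mouse 3 (0.230), nor with DESeq2 (0.387). Without GFAP-IL6 mouse 3 the log2 fold change was 0.43, the lowest of 18 alternatives, which reached up to 0.83. Their adjusted p ran from 1.83e-10, in edgeR without a filter on low counts, to 0.387 with DESeq2. Without that filter the log2 fold change stayed at 0.68.

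Apoc1, a small exchangeable apolipoprotein that inhibits lipoprotein lipase and receptor uptake, is a rare transcript here. It had 27, 19 and 18 counts in WT mice 1, 2 and 3, or 1.40, 1.05 and 2.36 CPM. In GFAP-IL6 mice 1, 2 and 3 it had 23, 91 and 242 counts, or 2.43, 4.37 and 6.28 CPM. The groups were set apart only narrowly, since WT mouse 3 and GFAP-IL6 mouse 1 were nearly level, and their exact Poisson intervals of 1.40 to 3.73 and 1.54 to 3.64 CPM overlapped. These intervals are at 95% and cover counting error only. The log2 fold change was 1.62 (SE 0.360, 95% interval 0.85 to 2.39; adjusted p = 0.0286, edgeR). The call was lost without WT mouse 1 (adjusted p = 0.109), WT mouse 2 (0.170), GFAP-IL6 mouse 2 (0.0952) or GFAP-IL6 mouse 3 (0.364), and with all mice thinned to the smallest total (0.0963). Its direction was the same in all 17 alternatives that gave a value, with log2 fold changes of 1.19 to 2.88. Their adjusted p ran from 6.61e-06, in edgeR without a filter on low counts, to 0.550 in 1 ng set A alone. Without that filter the log2 fold change stayed at 1.62.

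Clu encodes clusterin, also called apolipoprotein J, a secreted chaperone made by astrocytes. It was at 1279, 1462 and 1374 CPM in the WT mice and at 1315, 1591 and 1735 CPM in the GFAP-IL6 mice. GFAP-IL6 mouse 1 lay among the WT mice, and the other 2 lay above them. The log2 fold change was 0.17 (95% interval -0.05 to 0.39; adjusted p = 0.726, edgeR).

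The exporters showed no call. Abca1, which lipidates newly secreted apolipoproteins, was at 7.23, 7.92 and 6.56 CPM in WT and 7.38, 11.3 and 9.18 CPM in GFAP-IL6 mice, with a log2 fold change of 0.37 (95% interval -0.01 to 0.75; adjusted p = 0.585, edgeR). Its groups overlapped through GFAP-IL6 mouse 1 alone. Abcg1, which exports sterol to particles that already carry lipid, was at 12.4, 14.7 and 26.2 CPM in WT and 16.8, 16.0 and 14.8 CPM in GFAP-IL6 mice. The GFAP-IL6 values fell inside the WT range, which WT mouse 3 set at its upper end. The log2 fold change of Abcg1 was -0.12 (95% interval -0.56 to 0.33; adjusted p = 0.938) and turned to 0.22 without WT mouse 3.

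Lcat, the enzyme that esterifies cholesterol on the particles, was at 24.2, 31.5 and 35.6 CPM in WT and 29.5, 32.9 and 35.9 CPM in GFAP-IL6 mice. The groups overlapped almost fully, with a log2 fold change of 0.13 (95% interval -0.15 to 0.42; adjusted p = 0.867, edgeR) that was 0.25 without WT mouse 3 (adjusted p = 0.593). Lrp1, a large endocytic receptor for APOE on neurons and glia, was at 57.9, 58.7 and 76.0 CPM in WT and 69.1, 60.7 and 61.2 CPM in GFAP-IL6 mice. Its log2 fold change was -0.01 (95% interval -0.24 to 0.23; adjusted p = 0.998, edgeR). WT mouse 3 was the highest of the 6 mice, and without it the log2 fold change turned to 0.12 (adjusted p = 0.767, edgeR). Sort1 encodes sortilin, a sorting receptor that binds APOE and progranulin, and it was at 126, 123 and 139 CPM in WT and 135, 115 and 120 CPM in GFAP-IL6 mice. The groups overlapped, with a log2 fold change of -0.07 (95% interval -0.26 to 0.12; adjusted p = 0.907, edgeR) that was -0.013 without WT mouse 3 (adjusted p = 0.986).

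**Figure D2:**
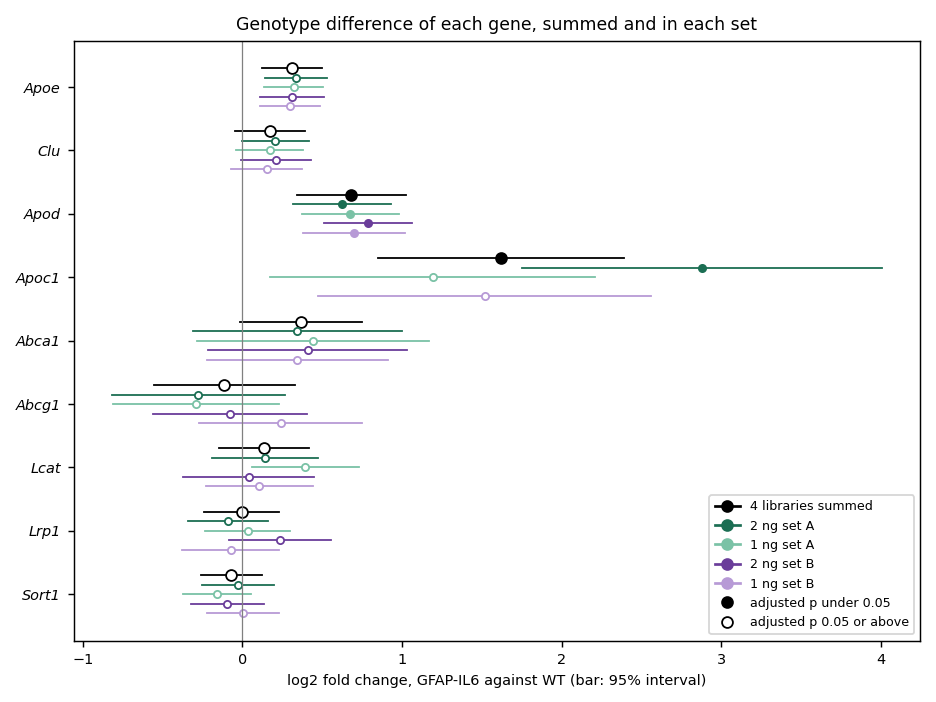
Log2 fold change of each gene, GFAP-IL6 against WT, with its 95% interval from edgeR, for the summed libraries (black) and each of the 4 sets; filled circles have an adjusted p under 0.05. Apod is filled in the sum and in all 4 sets, Apoc1 in the sum and in 2 ng set A, and no circle of the other 7 genes is filled.

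The 4 sets repeat the comparison on the same mice, so they show the technical spread and add no mice. Apod passed in each set, with log2 fold changes in set A of 0.62 at 2 ng and 0.67 at 1 ng (adjusted p = 0.0287 and 0.0149, edgeR) and in set B of 0.79 at 2 ng and 0.70 at 1 ng (0.000822 and 0.0258). Higher calls made up 1.01% and 1.07% of the genes tested in set A and 1.05% and 1.06% in set B, in the order of 2 ng and 1 ng. The Apod groups did not overlap in either amount of set B, while in set A the lowest GFAP-IL6 library, at 261 CPM with 2 ng and 319 CPM with 1 ng, lay below the highest WT library, at 278 and 323 CPM. Apoe had log2 fold changes of 0.34, 0.32, 0.31 and 0.30 in the same order, with adjusted p from 0.102 to 0.205. In all 4 sets each GFAP-IL6 library of Apoe exceeded each WT library, for example 5733 to 6721 against 4773 to 5008 CPM in 2 ng set A. The share of all genes with such groups was counted only over the summed mice, where it was 8.43%. The 4 sets repeat 1 ordering of the same mice.

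Apoc1 was too thin for single sets. It had 2 to 78 counts in a library, with 3 or fewer counts in 6 of the 24 libraries. In 2 ng set A the WT libraries lay at 0.494 to 1.32 CPM and the GFAP-IL6 libraries at 4.37 to 5.39 CPM (log2 fold change 2.88, adjusted p = 0.00321, edgeR). In 1 ng set A the groups overlapped (log2 fold change 1.19, adjusted p = 0.550), as they did in 1 ng set B (1.52, adjusted p = 0.287), and in 2 ng set B the gene did not pass the count filter. The groups of Lcat were apart in 1 ng set A only, at 23.5 to 31.0 CPM in WT and 33.2 to 36.1 CPM in GFAP-IL6 libraries (adjusted p = 0.547). The groups of Sort1 were apart in the same set in the other direction, at 128 to 139 CPM in WT and 112 to 122 CPM in GFAP-IL6 libraries (adjusted p = 0.851). How many of all genes had groups apart in that set was not counted.

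**Figure D3:**
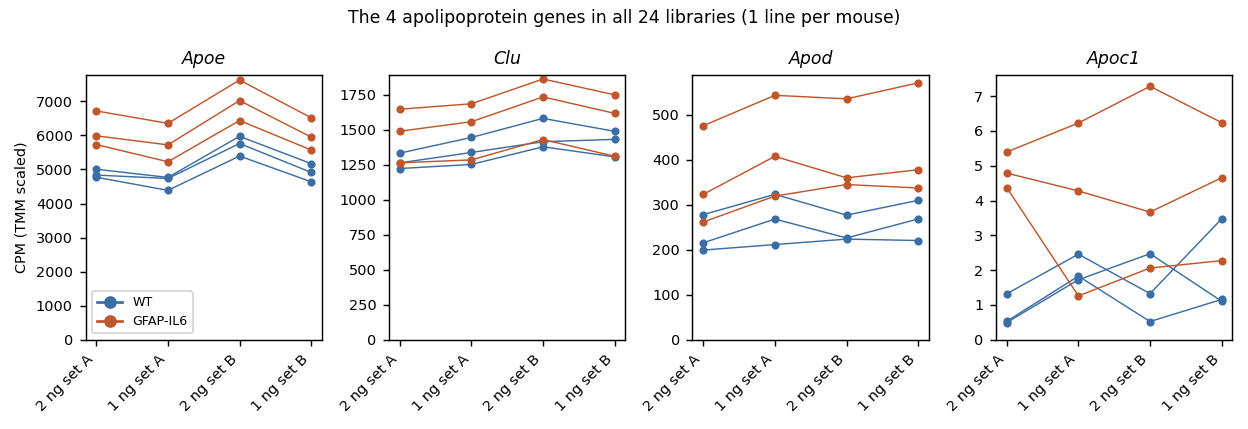
CPM of the 4 apolipoprotein genes in all 24 libraries, with 1 line per mouse over the 4 sets and linear axes from 0. The Apoe lines run side by side, peak in 2 ng set B and keep the genotypes apart, while the Apoc1 lines cross.

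Cell type markers moved with genotype beside these genes. Of 7 microglia markers, 6 passed as higher (median log2 fold change 0.72), among them C1qa at 1.39 and Aif1 at 1.22, while P2ry12 was at -0.02 (adjusted p = 0.985, edgeR). Summed over the list, microglia markers lay at 369 to 417 CPM in WT and 602 to 775 CPM in GFAP-IL6 mice. The 6 astrocyte markers had a median log2 fold change of 0.14 and a smallest adjusted p of 0.134, for Aqp4. All 5 endothelial markers were higher (median log2 fold change 0.70), and Flt1 passed (0.70, adjusted p = 0.00637, edgeR). Their sums lay at 27.6 to 34.2 CPM in WT and 41.7 to 53.2 CPM in GFAP-IL6 mice. All 5 pericyte and smooth muscle markers were higher too (median 0.15), and Rgs5 passed (0.52, adjusted p = 0.0206, edgeR). Their sums lay at 70.9 to 102 CPM in WT and 110 to 131 CPM in GFAP-IL6 mice. Summed CPM overlapped between the genotypes for neurons, oligodendrocytes and their precursors, border macrophages, fibroblasts, blood and choroid plexus, and every listed marker had counts. The 5 choroid plexus markers had a median log2 fold change of -1.22 and a smallest adjusted p of 0.543. GFAP-IL6 mouse 3, which had the largest total, was the highest of its genotype for 5 of the 9 genes, and also for the microglia markers at 775 CPM and for Gfap at 146 CPM. The part of these markers and of depth in the differences of Apod, Apoc1 and Apoe was not tested.

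The genes nearest to Apod, Apoc1 and Apoe in pattern over the 24 libraries were found by the root mean square difference of centred log2(CPM + 1), among 8979 or 8980 genes with a mean of at least 10 CPM. For Apod these were Neat1 (0.149), Vim (0.208) and Csf1r (0.217), where the median gene was at 0.498. Neat1 is a nuclear long noncoding RNA, Vim encodes the filament protein vimentin, and Csf1r encodes a growth factor receptor of microglia. For Apoc1 they were Tyrobp (0.409), Tmem176b (0.437) and Tmem176a (0.444) against a median of 0.783. Tyrobp encodes the signalling adaptor of TREM2 in microglia. For Apoe they were Slc9a3r2 (0.09997), Slc3a2 (0.107) and Hexa (0.111) against a median of 0.307, and of these Hexa, a lysosomal hexosaminidase gene, passed as higher (log2 fold change 0.43, adjusted p = 0.0195, edgeR). The 24 libraries come from 6 mice and share their sets, so these distances are descriptions.

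In the mouse genome (mm10), Apoe lies at chr7:19696109-19699188 and Apoc1 at chr7:19689481-19692660, both on the minus strand, so that Apoc1 lies 3448 nt downstream of Apoe. Neither overlaps another annotated gene. The same cluster goes on to Apoc4 and Apoc2, and on its other side Tomm40, a mitochondrial import gene, lies 2124 nt from Apoe. Tomm40 was at 109 ± 4.17 CPM in WT and 99.0 ± 1.48 CPM in GFAP-IL6 mice (SD, n = 3 each), with a log2 fold change of -0.14 (adjusted p = 0.704, edgeR). Apoc4 had 4 counts over the WT mice and 22 over the GFAP-IL6 mice and was not tested. Apoc2, the activator of lipoprotein lipase, had 2, 0 and 0 counts in WT mice 1, 2 and 3 and 8, 19 and 56 counts in GFAP-IL6 mice 1, 2 and 3. It passed as higher (adjusted p = 0.00513), and the ratio of pooled counts per total was 27.7 with an exact counting interval of 7.42 to 232. A later annotation adds a gene model, Gm44805, that spans Apoc2 and Apoc4.

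The other 7 genes lie apart from each other. Clu is at chr14:65968483-65981547 on the plus strand, Apod at chr16:31296192-31314808 on the minus strand and Abca1 at chr4:53030787-53159895 on the minus strand. Abcg1 is at chr17:31057675-31117988 on the plus strand, Lcat at chr8:105939551-105943382 on the minus strand, Lrp1 at chr10:127538161-127621148 on the minus strand and Sort1 at chr3:108284082-108361511 on the plus strand. Exons of Lcat overlap the antisense gene Gm16156, which had 5 counts in all, and exons of Sort1 overlap the antisense gene Gm12523, which had 0. Whether the counting used strand is not given in the sources used here, so reads of such partners cannot be told apart. No member had a near-identical copy of its last 300 nt elsewhere in the annotated transcripts.

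Promoter windows of 250 bases before to 50 after the start site were at hand for 5 of the 9 genes (Apoe, Apod, Abca1, Lcat and Lrp1), from RefSeq on GRCm38.p6. IL-6 signals through STAT3, whose dimers bind TTCNNNGAA, and liver X receptors with RXR bind direct repeats of AGGTCA spaced by 4 bases in genes of this pathway. On both strands, 8.3% of all 32851 promoter windows held the first motif and 0.0152% held the second. Of the 5 genes only Lrp1 held a match, to the STAT motif, and it is shown because it is the single match, in a gene that did not pass. The window is chr10:127621363-127621389, on the minus strand, with the motif in capitals.
Lrp1: tcggaccgcTTCCCAGAActccaaagc
A match of letters is a description and no binding site, and windows without one say nothing about either factor.

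Beyond the 9 genes, 76 further genes of lipoprotein and cholesterol handling were grouped in 6 lists, and 58 of them passed the count filter. Of these, 4 passed as higher, with a median log2 fold change of 0.03 over the 58 genes, against the same background of 1.74%. The lists too were chosen with earlier results of these data known, so the count is a description. Trem2, a microglial receptor that binds APOE and clusterin, was at 31.1, 34.9 and 29.8 CPM in WT and 60.0, 76.5 and 81.0 CPM in GFAP-IL6 mice, a log2 fold change of 1.18 (SE 0.117, adjusted p = 2.63e-05, edgeR). Ch25h makes 25-hydroxycholesterol, and it was at 0.989, 0.720 and 0.787 CPM in WT and 2.85, 3.41 and 6.85 CPM in GFAP-IL6 mice (2.43, adjusted p = 0.00173). Npc2, which takes part in moving cholesterol out of lysosomes, was at 123, 144 and 134 CPM in WT and 169, 175 and 183 CPM in GFAP-IL6 mice (0.40, adjusted p = 0.0228). Apoc2 was the fourth. Each of the 4 was higher in every GFAP-IL6 mouse than in every WT mouse, as were 8.43% of all genes tested. They were named for passing on these same mice, so the lack of overlap adds no support.

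**Figure D4:**
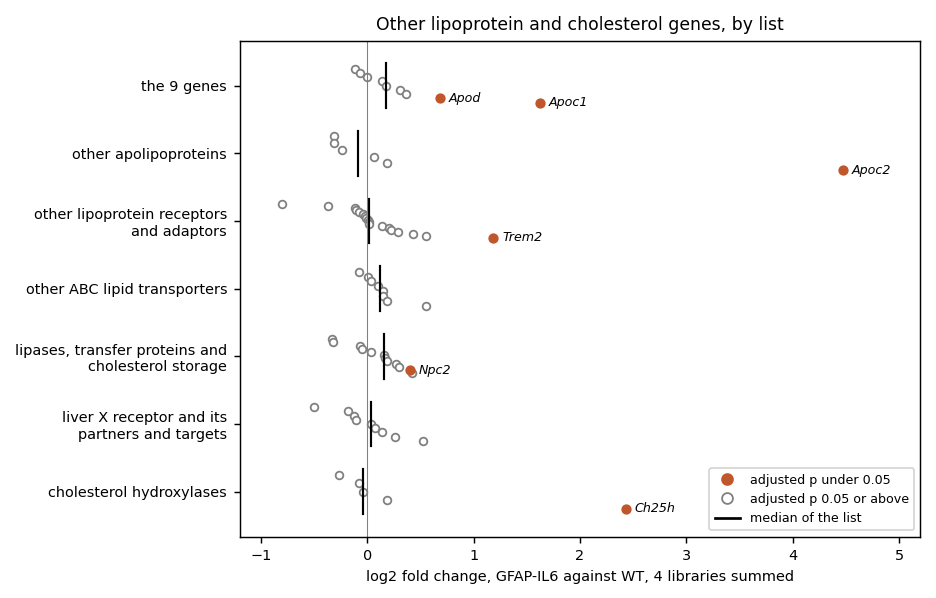
Log2 fold change of GFAP-IL6 against WT in the summed libraries, with 1 circle per tested gene of the 9 and of the 6 further lists; filled circles have an adjusted p under 0.05 and black lines are list medians. Most circles lie near 0, and Apod, Apoc1, Apoc2, Trem2, Npc2 and Ch25h are the filled ones.

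The further receptors and adaptors had a median log2 fold change of 0.01 over 18 tested genes. Apart from Trem2, their most abundant members Sorl1, at 219 ± 24.1 CPM in WT and 204 ± 17.1 CPM in GFAP-IL6 mice, Lrpap1, at 188 ± 12.9 and 189 ± 18.5 CPM, and Dab1, at 118 ± 10.9 and 120 ± 7.31 CPM, had log2 fold changes of -0.11, 0.01 and 0.02. Of the other ABC lipid transporters 8 were tested, with a median of 0.12 and a smallest adjusted p of 0.764. They were led in level by Abca2 at 53.5 ± 4.15 and 54.4 ± 2.50 CPM. The list of the liver X receptors, their RXR partners and targets had a median of 0.03 over 9 genes and a smallest adjusted p of 0.583, with Scd2 at 449 ± 37.2 CPM in WT and 417 ± 14.1 CPM in GFAP-IL6 mice. Nr1h3, the gene of liver X receptor alpha, had the highest log2 fold change in that list, 0.52.

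Of 12 tested lipases, transfer proteins and storage genes, Npc2 alone passed, and the list's median was 0.16. Nceh1, Pltp and Soat1, its next most abundant genes, had log2 fold changes of -0.05, 0.19 and 0.27. The 5 cholesterol hydroxylases had a median of -0.04, since Cyp46a1 (-0.08), which makes the cholesterol metabolite that leaves the brain, Cyp7b1 (-0.04), Cyp27a1 (0.19) and Cyp39a1 (-0.27) stood beside Ch25h. Of 16 further apolipoproteins 6 were tested, and Apoa4, Apoa5 and Apob, which are made mainly in gut and liver, had no count in any library. The tested ones other than Apoc2 included Apol8 (-0.31), Apoa1 (-0.24) and Apoh (-0.31), each under 5 CPM on average in both genotypes. Of the 6 tested genes, 3 had a log2 fold change above 0, Apoc2 among them, and Apoc2 alone passed.

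Some of these genes differed within a mouse between the 2 amounts of cDNA. Apoe was higher with 2 ng than with 1 ng in 6 of 6 mice, by a log2 fold change of 0.14 (SE 0.0105, adjusted p = 7.05e-39, edgeR with the mouse as a block). Apod was lower with 2 ng in 6 of 6 mice (-0.16, adjusted p = 3.66e-13). Abcg1 (-0.27, adjusted p = 0.00918) was lower in 5 of 6 mice and Lrp1 (-0.13, adjusted p = 0.0129) in 6 of 6. So 4 of the 9 genes passed, against 31.2% of the 14261 genes tested, a share of the same order. DESeq2 with the same block called 2 of the 9, and edgeR without the block called 0, with 1 gene at an unadjusted p under 0.05. The study's methods pool samples after reverse transcription, so libraries of a set may share 1 reaction, and p-values within mice may then rest on few reactions. Amount and reaction could then not be told apart. The edgeR p-values within mice, for amount and for set, use variance shared over all genes tested. They do not measure the spread of these 6 mice alone.

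Set A and set B differed for Apoe, by a log2 fold change of -0.13 (adjusted p = 1.73e-27, edgeR with the mouse as a block), for Clu, by -0.12 (adjusted p = 3.55e-13), and for Apod, by -0.08 (adjusted p = 0.0106). Apoe and Clu were lower in set A in 6 of 6 mice and Apod in 5 of 6. These 3 of 9 genes stand against 21.7% of the 14486 genes tested. For Apoe, 2 ng exceeded 1 ng by 0.03 to 0.13 on the log2(CPM + 1) scale in set A and by 0.21 to 0.24 in set B. Clu was lower with 2 ng in 6 of 6 mice in set A and higher in 5 of 6 mice in set B, a difference that was not tested.

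No dependence of the genotype difference on these steps was detected for the 9 genes. For Apoe it differed between 2 ng and 1 ng by 0.02 (95% interval -0.02 to 0.06) and between sets by 0.03 (-0.01 to 0.06) on the log2 scale. For Apod the corresponding values were -0.00066 (-0.09 to 0.09) and -0.07 (-0.17 to 0.03). The intervals for Apoc1 were wide, at -0.21 to 1.69 for amount and -0.87 to 1.23 for set. edgeR called 0 genes in either interaction test, with 551 and 606 genes at an unadjusted p under 0.05, and 0 of the 9 among them. On the log2(CPM + 1) scale, the SD between libraries of a mouse was 0.13 for Apoe and 0.14 for Apod, while the SD between mice of a genotype was 0.10 and 0.32.

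**Figure D5:**
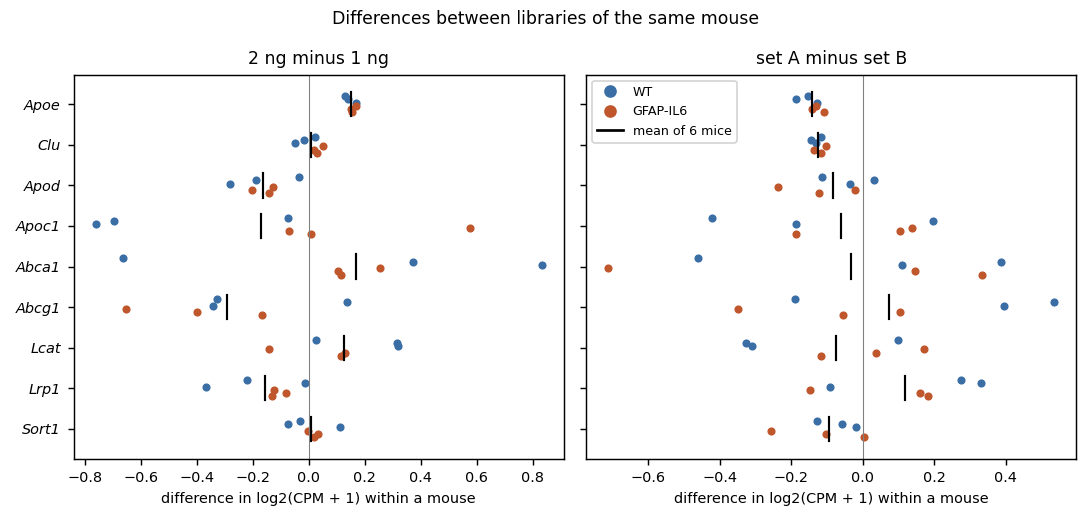
Differences in log2(CPM + 1) within each of the 6 mice, for 2 ng minus 1 ng averaged over the sets (left) and for set A minus set B averaged over the amounts (right); points are mice and black lines are means. The Apoe points lie between 0.13 and 0.17 on the left and all below 0 on the right, and the points of Apoc1 and Abca1 spread over both signs.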

How the data were processed

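Frontal cortex RNA of 3 WT and 3 GFAP-IL6 mice gave 24 libraries, 4 from each mouse. The authors trimmed the reads, aligned them with STAR 2.4 to mm10 per the study's methods (the labels name hg19), counted uniquely aligned reads per GENCODE gene with featureCounts, and deposited raw counts without normalization. Groups came from the labels. The members and lists were chosen with earlier results of these data known. Counts of a mouse were summed and compared with the quasi-likelihood test of edgeR 4.0.16 (R 4.3.3) after TMM scaling and filterByExpr, with Benjamini-Hochberg adjustment over all genes tested. Comparisons within mice had the mouse as a block. Exact permutation tests over mice were two-sided. The test was checked on simulated data. Named genes were the 9 members, Il6, Gfap, the pathway genes with the 10 smallest adjusted p under 0.05, up to 3 of the most abundant genes of each list, markers, 3 genes nearest in pattern to Apoe and to each member that passed, and neighbours; Cyp39a1, Nr1h3, Apoc4, Apoa4, Apoa5 and Apob were named after their values were seen. Alternatives were DESeq2 1.42.0, its size factors, library totals, other filters, thinning, leaving out each mouse, a block of same-numbered mice, limma 3.58.1 voom and each set alone. CPM differences used a pseudocount of 1. Genes sharing 3' ends were sought with minimap2 2.31-r1302 (last 300 nt, at least 100 nt at 97% identity). Positions are from GENCODE on mm10. TruSeq libraries and spike-ins were not analysed here. Totals of 1524165 to 12256374 counts per library set the precision, and reads without molecular identifiers make counting intervals cover counting error only.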

Additional observations from a re-analysis of the deposited data

Results flagged for a closer look

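Differences within a mouse were screened for a single mouse far from the other five, in 36 groups of 6 mice, where chance alone marks about 1 in 20 groups. The groups marked, both described here, made up about that share, so they cannot be told apart from chance. WT mouse 3 stood apart for Clu, with a log2 difference of -0.017 between 2 ng and 1 ng in set B, where the median of the mice was 0.09. GFAP-IL6 mouse 1 stood apart for Lcat, with a log2 difference of -0.40 between 2 ng and 1 ng in set A, where the median was 0.08. These are the mice with the smallest totals of their genotypes, at 7852743 and 9534116 counts, and the part of depth was not tested.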

How the results depend on the processing

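The 2 members that passed became 1 with thinned sums and 1 each in 1 ng A, 2 ng B and 1 ng B alone, and 0 to 3 when single mice were left out (0 without WT mouse 1, GFAP-IL6 mouse 2 or GFAP-IL6 mouse 3, 1 without WT mouse 2 or WT mouse 3, 3 without GFAP-IL6 mouse 1). All genes that passed numbered 263, or 462 without a filter, 460 with limma voom and 125, 136, 132 and 140 in 2 ng A, 1 ng A, 2 ng B and 1 ng B alone, and 146 (without GFAP-IL6 mouse 3) to 321 when single mice were left out. Same-numbered mice did not deviate together (correlations -0.05, -0.03 and -0.03), and differently numbered mice were at -0.08 to 0.13. These values showed no sign of a pairing by number, but with 3 mice per genotype they cannot exclude it. With a block of same-numbered mice 2 members and 215 genes passed. Of 4 members for 2 ng against 1 ng, 2 passed with DESeq2 and 0 without the mouse as a block, and of 3 for set A against set B, 0 without that block (1 at an unadjusted p under 0.05 in edgeR). Under these alternatives directions turned only in values that did not pass. Abcg1 (-0.12) was at 0.021 with voom, 0.24 in 1 ng set B and -0.33 to 0.22 leaving out mice. Lcat (0.13) was at -0.015 to 0.25 leaving out mice. Lrp1 (-0.01) was at 0.027 by library totals, 0.0016 with 10 counts in every sum, 0.0070 thinned, 0.025 with voom, 0.032 in 1 ng A alone, 0.23 in 2 ng B alone and -0.075 to 0.12 leaving out mice. Sort1 (-0.07) was at 0.0023 in 1 ng set B, and Clu for 2 ng against 1 ng (0.00089) at -0.0014 without the mouse as a block and -0.0044 without a filter. The causes were not tested. Voom counted libraries of a mouse with a correlation of only 0.103. Depth limits Apoc1, with a median of 8 counts per library.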
